A study of Mus musculus with 20 samples.

Results

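The 9 genes described here are Hedgehog pathway genes linked to septal defects: the receptor gene Ptch1, the signal transducer gene Smo, the transcription factor genes Gli1, Gli2 and Gli3, the inhibitor gene Sufu, the ligand-binding inhibitor gene Hhip, and the ciliary complex genes Evc and Evc2. They were chosen by name from 48795 genes in the table of normalised read counts, because a Hedgehog response is needed to divide the atria and ventricles, and not by a threshold on any value. RNA sequencing had been carried out on whole hearts of E13.5 mouse embryos, 20 in all in 4 groups of 5. Dp3Tyb hearts carried the duplication Dp(16Mir802-Zbtb21)3TybEmcf and Ts1Rhr hearts the shorter duplication Dp(16Cbr1-Fam3b)1Rhr, each of which gives an extra copy of part of mouse chromosome 16 that is orthologous to part of human chromosome 21. The wild-type (WT) hearts of each strain came from littermates without the duplication, and all mice were on a C57BL/6J background. Both duplications are in every cell of the embryo, so a whole heart cannot show in which cells a transcript changed. The study describes heart defects in the Dp3Tyb strain and none in the Ts1Rhr strain. The labels of all 5 Dp3Tyb hearts and also of Ts1Rhr replicates 1 and 2 name heart defects, while those of Ts1Rhr replicates 3 to 5 name none, and groups were kept by genotype. Mutants were set against littermates of the same strain, and a strain together with its littermates is called a cohort below.

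Hedgehog ligands are secreted proteins that bind Ptch1 on a receiving cell and release its hold on Smo, which then acts in the primary cilium. Active Smo turns Gli2 and Gli3 from repressors into activators, a step that Sufu restrains and that Evc and Evc2 promote at the base of the cilium. Gli1, Ptch1 and Hhip are themselves switched on by the pathway, and Ptch1 and Hhip then dampen it by binding ligand, so that their transcripts serve as readouts of signalling. In the embryo, Shh made by the foregut and lung bud epithelium reaches the mesoderm behind the heart, and progenitors of the second heart field that receive it build the dorsal mesenchymal protrusion, which closes the atrioventricular septum. The lung buds lie against the dorsal side of the heart and hold the same signalling pair, an epithelium that makes Shh and a mesenchyme that answers with Gli1, Ptch1 and Hhip. For this reason every library was also examined for 3 lung bud epithelial transcripts: Epcam and Cdh1, which encode adhesion proteins of epithelia, and Nkx2-1, a transcription factor gene of lung and thyroid.

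All 9 members lie outside chromosome 16 and are in 2 copies in all 4 groups. In GRCm38, the build of the deposited table, RefSeq places Ptch1 (ENSMUSG00000021466) at chr13:63508328-63573460, Gli3 (ENSMUSG00000021318) at chr13:15463723-15730026, Gli1 (ENSMUSG00000025407) at chr10:127329882-127341579 and Gli2 (ENSMUSG00000048402) at chr1:118834061-119054405. Smo (ENSMUSG00000001761) is at chr6:29735497-29761366, Sufu (ENSMUSG00000025231) at chr19:46396896-46488804 and Hhip (ENSMUSG00000064325) at chr8:79965850-80058060. Evc (ENSMUSG00000029122) is at chr5:37288970-37336947 and Evc2 (ENSMUSG00000050248) at chr5:37338478-37425055. The last pair is transcribed head to head from a gap of 1530 bases, and the protein products work in a single complex. Sequence upstream of these 2 genes is shown because the slope on lung bud transcripts below passed for Evc and not for Evc2. The difference between their slopes was not tested. Sequence upstream of Hhip is shown because its transcript varied most among libraries. Each stretch is written 5′ to 3′ on the strand of its gene, stops just before the outermost RefSeq start, and comes from the RefSeq promoter table of GRCm38.p6:
Hhip, chr8:80058061-80058258, minus strand: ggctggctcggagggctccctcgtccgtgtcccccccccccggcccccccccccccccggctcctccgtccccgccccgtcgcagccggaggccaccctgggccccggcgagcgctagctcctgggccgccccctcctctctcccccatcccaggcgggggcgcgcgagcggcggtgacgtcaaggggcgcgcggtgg
Evc, chr5:37336948-37337131, minus strand: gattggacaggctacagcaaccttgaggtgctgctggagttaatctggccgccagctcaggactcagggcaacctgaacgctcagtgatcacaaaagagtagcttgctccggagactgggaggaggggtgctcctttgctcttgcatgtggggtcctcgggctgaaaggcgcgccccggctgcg
Evc2, chr5:37338228-37338477, plus strand: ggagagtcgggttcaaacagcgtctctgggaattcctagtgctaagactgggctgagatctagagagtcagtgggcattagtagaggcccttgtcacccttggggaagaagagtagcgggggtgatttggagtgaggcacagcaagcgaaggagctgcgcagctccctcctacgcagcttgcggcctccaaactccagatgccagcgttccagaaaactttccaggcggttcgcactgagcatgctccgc
The sequences are in lower case throughout, because capitals were kept for matches to the GLI binding motif GACCACCCA and none was found. RefSeq promoter windows of 300 bases, from 250 before to 50 after a start, were searched on both strands for 8 members, all but Gli1. None of the 8 windows held the motif exactly or with 1 mismatch. For Ptch1 and Gli2 the window belonged to an inner start (63565735 and 119053619). Sequence at their outermost starts (63573460 and 119054405) was thus not searched. Of all 32851 promoter windows, 0.253% held it exactly and 6.74% with at most 1 mismatch. The absence of a match says only that these letters are not in these windows.

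Libraries held between 6.60 M and 19.6 M reads, and mitochondrial transcripts took from 4.85% to 19.5% of them, with 7 libraries over 10%. Dyrk1a, which is in 3 copies in both strains, had groups without overlap in both strains, with log2 fold changes of 0.46 ± 0.10 in Dp3Tyb and 0.38 ± 0.08 in Ts1Rhr (SE). It missed the threshold in limma (adjusted p = 0.478 and 0.415) and edgeR (0.452 and 0.412) and passed in DESeq2 (0.0140 and 0.0138). Heart markers were present throughout: the summed value of 7 cardiomyocyte markers lay between 230650 and 447122, that of 5 endocardial and endothelial markers between 11179 and 14486, and that of 4 epicardial markers between 3309 and 4419. Lung bud transcripts were unevenly spread. The summed value of Epcam, Cdh1 and Nkx2-1 was 329, 3.81, 236, 4.49 and 29.4 in WT replicates 1 to 5 of the Dp3Tyb cohort and 44.3, 102, 121, 405 and 117 in Dp3Tyb replicates 1 to 5. In the Ts1Rhr cohort it was 329, 99.8, 185, 333 and 203 in WT replicates 1 to 5 and 4.79, 117, 7.99, 229 and 262 in Ts1Rhr replicates 1 to 5. Thus 4 libraries had a sum under 10, namely WT replicates 2 and 4 of the Dp3Tyb cohort and Ts1Rhr replicates 1 and 3, and WT replicate 5 of the Dp3Tyb cohort was the next lowest. The lung bud level, the mean log2(value + 1) of the 3 transcripts, was 3.49 ± 2.71 in WT and 5.19 ± 1.05 in Dp3Tyb, and 6.0 ± 0.70 in WT and 3.90 ± 2.5 in Ts1Rhr (SD, n = 5 each). Low libraries were thus on the WT side of the Dp3Tyb cohort and on the mutant side of the Ts1Rhr cohort.

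The strains were first compared for single members, to ask whether expression of the Hedgehog pathway differed in hearts with the duplication. None of the 9 members passed in either strain. In limma on log2(value + 1), with Benjamini-Hochberg adjustment over all genes tested, 0 of 9 members had an adjusted p under 0.05 in Dp3Tyb, where 0.0542% of all 14763 genes tested did, and 0 of 9 in Ts1Rhr, where 0.0269% of 14867 did. DESeq2 and edgeR on the recovered whole reads also called 0 of 9 in both strains. An unadjusted p under 0.05 was found for 0 of 9 members in Dp3Tyb (2.80% of all genes) and for 1 of 9 in Ts1Rhr (5.52% of all genes), the exception being Ptch1. No member had groups that did not overlap, against 0.975% of all genes in Dp3Tyb and 1.12% in Ts1Rhr. In every comparison all 9 members passed the filter on low values, for which 5 of the fitted libraries had to reach 10. In whole hearts, fewer cells of a type and less RNA per cell cannot be told apart.

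**Figure D1:**
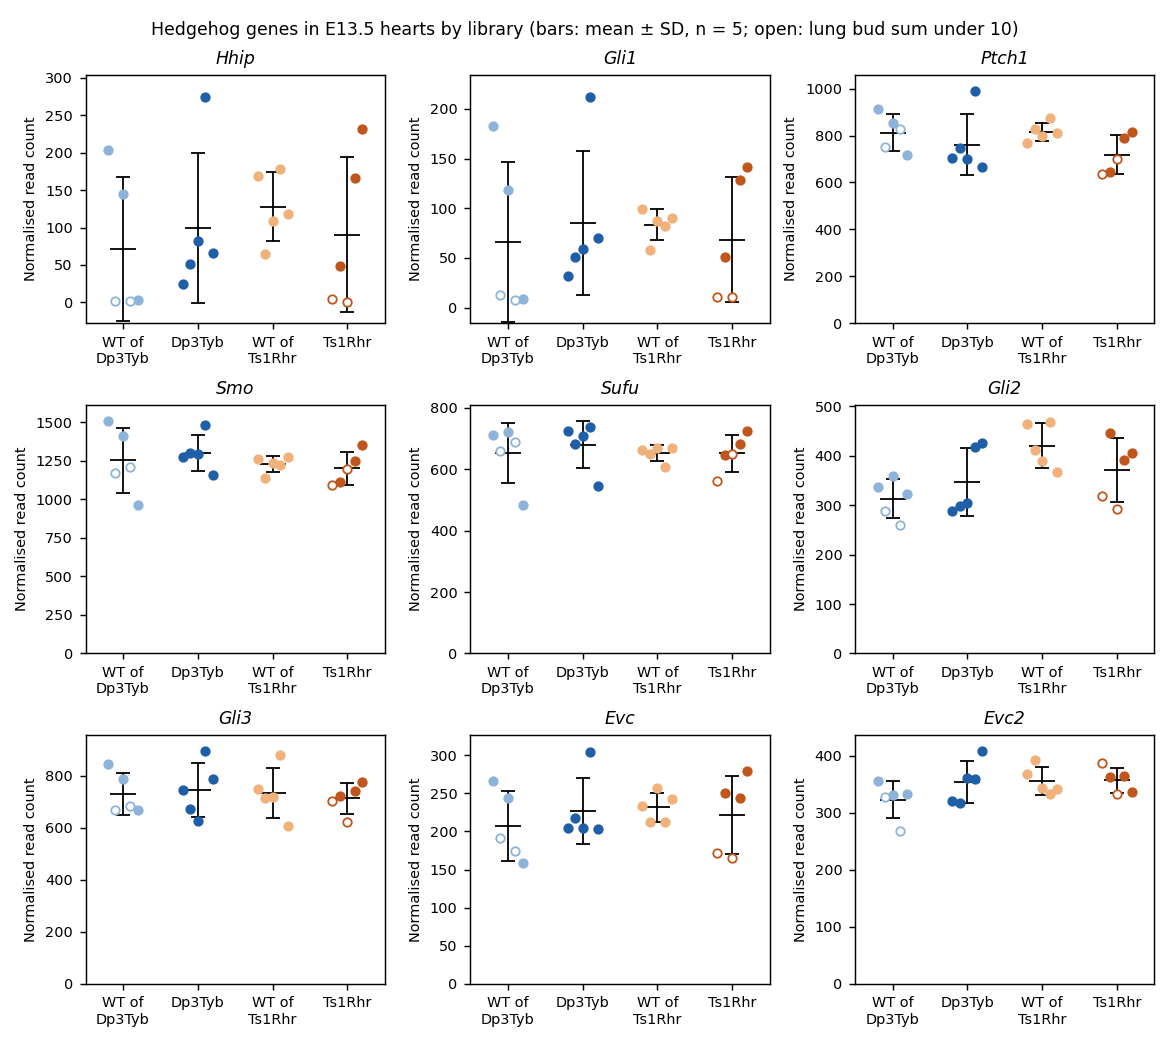
Normalised read counts (y axes, from 0 or from the lower end of the SD bar) of the 9 genes in each of 20 E13.5 hearts by group (x axes), with the mean and SD of 5 hearts; open points are the 4 libraries whose summed lung bud value is under 10. Hhip runs from 0 to 275 and Gli1 from 7.48 to 212 with all open points near the bottom, while Ptch1 stays between 636 and 992 in all 20 hearts.

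Hhip, which encodes a membrane protein that binds Hedgehog ligands and keeps them from the receptor, varied most among libraries. Its normalised read count was 204, 2.28, 145, 1.5 and 2.94 in WT replicates 1 to 5 of the Dp3Tyb cohort and 23.8, 51.6, 81.4, 275 and 65.7 in Dp3Tyb replicates 1 to 5. The WT hearts thus fell into 2 high and 3 very low libraries, and the Dp3Tyb hearts lay between them except replicate 4, which was the highest of all 20 libraries. In the Ts1Rhr cohort Hhip was 170, 65.1, 109, 178 and 118 in WT and 4.79, 48.8, 0, 166 and 232 in Ts1Rhr. Here the very low libraries were mutant, and groups again overlapped. The 0 of Ts1Rhr replicate 3 allows a value of up to 2.66, the worth of 3 reads there. The log2 fold change of Hhip was 2.20 ± 1.30 (SE) in Dp3Tyb (limma adjusted p = 1.0) and -2.24 ± 1.34 in Ts1Rhr (limma adjusted p = 0.795). With DESeq2, which compares mean reads rather than mean logs, it was 0.49 ± 1.28 and -0.50 ± 1.17 (DESeq2 adjusted p = 1.0 and 0.936). Leaving out 1 library at a time moved the limma value between 1.54 and 3.13 in Dp3Tyb and between -3.04 and -1.07 in Ts1Rhr, where the value nearest to 0 was that without Ts1Rhr replicate 3.

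Gli1, the transcriptional activator gene that is most often used as a readout of the pathway, showed the same arrangement of libraries at a smaller range. It was 183, 12.9, 118, 7.48 and 8.81 in WT and 31.5, 50.9, 59.3, 212 and 69.9 in Dp3Tyb, so that the lowest and the second highest hearts of the cohort were WT. In the Ts1Rhr cohort it was 99.3, 57.5, 86.9, 82.3 and 89.8 in WT and 10.8, 50.8, 10.7, 128 and 142 in Ts1Rhr. The 5 WT hearts lay close together there, with mutant hearts both below and above them. The log2 fold change was 1.18 ± 0.90 (SE) in Dp3Tyb (limma adjusted p = 1.0) and -0.98 ± 0.67 in Ts1Rhr (limma adjusted p = 0.795), against 0.36 ± 0.96 and -0.28 ± 0.71 with DESeq2 (DESeq2 adjusted p = 1.0 and 0.939). Leaving out 1 library at a time moved the limma value in Dp3Tyb to between 0.72 and 0.78 without WT replicate 4, WT replicate 5 or Dp3Tyb replicate 4 and to 1.83 without WT replicate 1. In Ts1Rhr it lay between -1.42 and -0.52, with the value nearest to 0 without Ts1Rhr replicate 1 or 3. The 5 libraries with the lowest lung bud level were also the 5 with the lowest Gli1 and the 5 with the lowest Hhip.

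Ptch1, which encodes the Hedgehog receptor and is also a target of the pathway, did not share this pattern of near absence. Its normalised read count was 915, 750, 852, 828 and 716 in WT and 706, 746, 698, 992 and 667 in Dp3Tyb, with 1 of 5 Dp3Tyb hearts above the WT mean. The difference was -0.10 ± 0.11 on the log2 scale (SE, limma adjusted p = 1.0). In the Ts1Rhr cohort it was 770, 828, 797, 873 and 811 in WT and 636, 643, 700, 791 and 816 in Ts1Rhr. Again 1 of 5 mutant hearts was above the WT mean, and 3 were below every WT heart. The log2 fold change was -0.19 ± 0.08 (SE, 95% interval -0.37 to -0.015, limma adjusted p = 0.795). It went to -0.11 ± 0.09 with the lung bud level in the fit and to -0.07 without libraries over 10% mitochondrial reads, but to -0.33 without libraries above the median lung bud level (limma adjusted p = 0.990, 0.998 and 1.0), and in whole reads DESeq2 gave -0.18 ± 0.09 (DESeq2 adjusted p = 0.887). Ptch1 is thus a difference that fails the correction for multiple tests.

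Smo, the membrane protein gene whose product passes the signal on inside the cell, ranged from 966 to 1509 over the 20 hearts and differed by 0.07 ± 0.12 in Dp3Tyb and -0.03 ± 0.07 in Ts1Rhr (log2 scale, ± SE, limma adjusted p = 1.0 and 0.879). Sufu, which encodes the protein that holds Gli factors in the cytoplasm, ranged from 484 to 738 and differed by 0.07 ± 0.12 and -0.0033 ± 0.07 (limma adjusted p = 1.0 and 0.992). For both genes the lowest heart of all was WT replicate 5 of the Dp3Tyb cohort, which was also the library with the fewest reads and the largest mitochondrial share. Over the 7 libraries with more than 10% mitochondrial reads Sufu lay between 484 and 664, and over the 13 others between 649 and 738. The values for Smo were 966 to 1260 and 1170 to 1509. No member passed in either strain with a mitochondrial term in the fit or without the libraries over 10%, where Smo was at 0.02 in Dp3Tyb and 0.010 in Ts1Rhr and Sufu at 0.04 and 0.034 (log2 scale).

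Gli2 and Gli3 encode the factors that first respond to Smo, Gli2 mainly as activator and Gli3 mainly as repressor. Gli2 ranged from 260 to 469 and Gli3 from 607 to 896, and neither fell near 0 in any heart. In Dp3Tyb the log2 fold changes were 0.13 ± 0.14 for Gli2 and 0.02 ± 0.11 for Gli3 (SE, limma adjusted p = 1.0 each). In Ts1Rhr they were -0.19 ± 0.12 and -0.03 ± 0.10 (limma adjusted p = 0.795 and 0.916). The direction for Gli3 turned in both strains with the lung bud level in the fit, to -0.08 in Dp3Tyb and 0.07 in Ts1Rhr, and without libraries over 10% mitochondrial reads, to -0.03 and 0.10.

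Evc and Evc2 encode partners that tether active Smo to a zone at the base of the cilium, and mutations in either gene cause Ellis-van Creveld syndrome, in which the atrial septum is often incomplete. Evc was 267, 191, 243, 175 and 159 in WT and 204, 218, 204, 304 and 203 in Dp3Tyb, and 233, 213, 257, 212 and 243 in WT and 171, 250, 165, 244 and 280 in Ts1Rhr. The 5 libraries with the lowest lung bud level were again the 5 lowest, although Evc fell there to no less than 159. Evc2 was 356, 327, 331, 268 and 332 in WT and 321, 318, 361, 359 and 408 in Dp3Tyb, and 367, 393, 344, 333 and 342 in WT and 387, 363, 333, 363 and 337 in Ts1Rhr. The low libraries of Evc and Evc2 coincided in part: of the 5 lowest for Evc, WT replicate 4 of the Dp3Tyb cohort had the lowest Evc2 of all hearts, whereas Ts1Rhr replicate 1 had the third highest. Evc differed by 0.14 ± 0.17 in Dp3Tyb and -0.09 ± 0.15 in Ts1Rhr, and Evc2 by 0.13 ± 0.10 and 0.0040 ± 0.07 (log2 scale, ± SE, limma adjusted p = 1.0, 0.855, 1.0 and 0.990).

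Over the 9 members the median log2 fold change was 0.13 in Dp3Tyb, with 8 higher and 1 lower, against a median of -0.0027 over all genes tested. In Ts1Rhr the median was -0.09, with 1 higher and 8 lower, against -0.0016 over all genes tested. The difference of the change between the strains was then taken as an interaction contrast over all 20 hearts. It was positive for all 9 members, with a median of 0.13 against 0.0015 over all genes tested. Hhip had the largest value (4.44 ± 1.95, SE, limma adjusted p = 1.0), followed by Gli1 (2.16 ± 1.2, limma adjusted p = 1.0), and the other 7 lay between 0.06 and 0.32. With DESeq2 the values were 0.99 ± 1.74 for Hhip and 0.63 ± 1.19 for Gli1 (DESeq2 adjusted p = 1.0 each). With adjustment 0 of 9 members passed, where 0.0130% of all 15348 genes did, and without it 1 of 9 (Hhip) did, where 1.52% of all genes did.

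These differences were recomputed with the lung bud level of each library as a term in the fit. In Dp3Tyb the value for Hhip went from 2.20 to 0.24 ± 0.29 and that for Gli1 from 1.18 to -0.13 ± 0.32 (log2 scale, ± SE, limma adjusted p = 1.0 each). In Ts1Rhr Hhip went from -2.24 to 0.42 ± 0.43 and Gli1 from -0.98 to 0.44 ± 0.24 (limma adjusted p = 0.990 each). The sign thus turned for Gli1 in both strains and for Hhip in Ts1Rhr, and every standard error of this pair was smaller than without the term. The 95% intervals that remained, with 5 hearts a group, still spanned -0.40 to 0.89 for Hhip and -0.84 to 0.58 for Gli1 in Dp3Tyb. Changes within these intervals are compatible with the values. The difference between strains turned to -0.13 for Hhip and -0.61 for Gli1. Over the 9 members, 4 were then higher and 5 lower in Dp3Tyb, and 7 higher and 2 lower in Ts1Rhr.

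**Figure D2:**
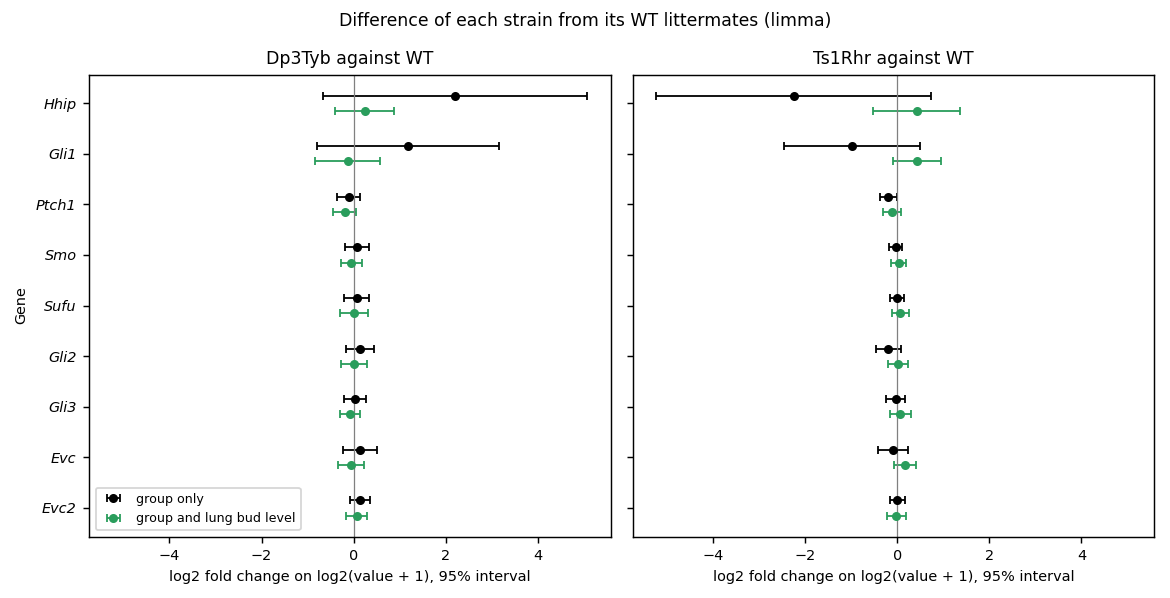
Log2 fold change of each of the 9 genes (y axis) in Dp3Tyb and in Ts1Rhr against WT littermates on the log2(value + 1) scale (x axis, limma, points with 95% intervals), from fits with group alone (black) and with group and lung bud level (green). The black values for Hhip, 2.20 and -2.24, and for Gli1, 1.18 and -0.98, lie far from 0 in opposite directions, and the green values lie between -0.13 and 0.44.

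The relation of each member to lung bud transcripts was then measured among hearts of the same genotype, as the slope of log2(value + 1) on the lung bud level beside the 4 group means in a limma fit of all 20 hearts. It passed for 4 of the 9 members, all upward, where 3.36% of all 15348 genes passed in either direction and 3.08% upward. The slope was 1.2 ± 0.07 for Hhip (SE, limma adjusted p = 2.2e-09) and 0.73 ± 0.05 for Gli1 (limma adjusted p = 4.8e-08), in log2 units per log2 unit of lung bud level. Evc had a slope of 0.12 ± 0.02 (limma adjusted p = 0.000799) and Gli2 of 0.08 ± 0.02 (limma adjusted p = 0.0217). Smo (0.05 ± 0.02), Gli3 (0.06 ± 0.02), Ptch1 (0.05 ± 0.02), Sufu (0.03 ± 0.02) and Evc2 (0.02 ± 0.02) did not pass (limma adjusted p = 0.0880, 0.0945, 0.181, 0.614 and 0.904, in that order). The upper ends of the 95% intervals were 0.085 for Ptch1 and 0.05 for Evc2, against lower ends of 0.62 for Gli1 and 1.06 for Hhip.

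Within the Dp3Tyb cohort alone the slopes of Hhip (1.15 ± 0.07, SE, limma adjusted p = 0.000128) and Gli1 (0.77 ± 0.08, limma adjusted p = 0.00298) passed, and within the Ts1Rhr cohort so did those of Hhip (1.26 ± 0.11, limma adjusted p = 0.000279) and Gli1 (0.67 ± 0.06, limma adjusted p = 0.000395). Evc kept its size in both cohorts (0.11 ± 0.03 and 0.13 ± 0.03) without passing (limma adjusted p = 0.277 and 0.0669), and so did Gli2 (0.08 ± 0.03 and 0.10 ± 0.03, limma adjusted p = 0.828 and 0.159). Gli2 also missed the threshold without Dp3Tyb replicate 4, Ts1Rhr replicate 1, Ts1Rhr replicate 3 or WT replicate 4 of the Dp3Tyb cohort (limma adjusted p from 0.0518 to 0.0852), and without all 4 libraries of low lung bud level (0.255). Smo passed without those 4 libraries (0.13, limma adjusted p = 0.00704), without WT replicate 5 of the Dp3Tyb cohort (0.0324) and with a mitochondrial term (0.000764). With a mitochondrial term 7 of 9 members passed, Gli3 (limma adjusted p = 0.0128) and Ptch1 (0.0330) among them. That fit also called more of all genes, 1656 of 15348, against 516 without the term.

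**Figure D3:**
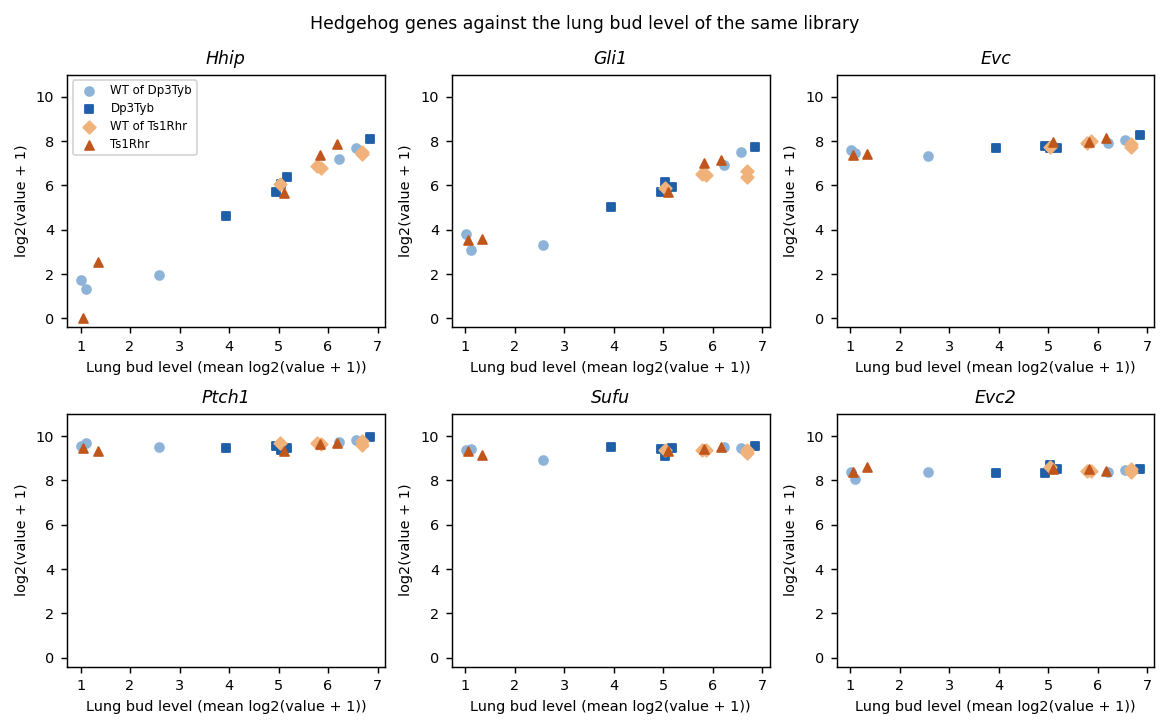
Log2(value + 1) of 6 of the genes (y axes) against the lung bud level of the same library, the mean log2(value + 1) of Epcam, Cdh1 and Nkx2-1 (x axes), for 20 hearts marked by group. Hhip and Gli1 climb along the axis, with 4 hearts at lung bud levels from 1.02 to 1.35, while Ptch1, Sufu and Evc2 change little.

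Because 4 libraries stood apart at lung bud levels from 1.02 to 1.35, correlations were computed over the other 16 hearts alone, on values centred within groups, with permutation of hearts within groups and adjustment over the 9 members. The 16 still held WT replicate 5 of the Dp3Tyb cohort, whose level of 2.57 rested on 7 reads of Epcam, 3 of Cdh1 and 0 of Nkx2-1. It was the heart farthest from their median level, and the correlations within the Dp3Tyb cohort were not recomputed without it. Hhip followed the lung bud level most closely (Pearson's r of 0.980, permutation p = 1e-05, adjusted p = 9e-05, and Spearman's rho = 0.974 with the same p, which no draw of 100000 could make smaller). Gli1 came next (r = 0.959, permutation p = 0.00013, adjusted p = 0.000585, rho = 0.891, permutation p = 0.00138, adjusted p = 0.00621). Without the 2 hearts farthest from the median lung bud level, r was 0.937 for Hhip and 0.863 for Gli1. Among the 8 hearts left in the Dp3Tyb cohort r was 0.995 for Hhip (exact permutation p = 0.00139) and 0.994 for Gli1 (with an exact permutation p of 0.00417), and among the 8 left in the Ts1Rhr cohort 0.891 and 0.732 (exact permutation p = 0.00417 and 0.0278). The rank correlation within the cohorts was 0.976 and 0.881 for Hhip (exact permutation p = 0.00139 and 0.00556) and 0.976 and 0.524 for Gli1 (exact permutation p = 0.00694 and 0.149).

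Among the other 7 members, Smo (r = 0.885, rho = 0.803), Ptch1 (r = 0.727, rho = 0.726) and Gli3 (r = 0.630, rho = 0.709) passed by both measures (permutation p for r = 0.00387, 0.0117 and 0.0200, adjusted p = 0.0116, 0.0262 and 0.0300, permutation p for rho = 0.00675, 0.0121 and 0.00800, adjusted p = 0.0180, 0.0219 and 0.0180). Evc passed by r (0.840, permutation p = 0.0185, adjusted p = 0.0300) and not by rho (0.656, permutation p = 0.0416, adjusted p = 0.0584). Gli2, Sufu and Evc2 passed by neither (r = 0.461, 0.642 and 0.101, permutation p = 0.0425, 0.129 and 0.711, adjusted p = 0.0546, 0.145 and 0.711, rho = 0.512, 0.515 and 0.132, permutation p = 0.0454, 0.124 and 0.653, adjusted p = 0.0584, 0.139 and 0.653). Within the Dp3Tyb cohort r was 0.916 for Smo, 0.807 for Ptch1, 0.686 for Gli3 and 0.946 for Evc (exact permutation p = 0.0222, 0.0347, 0.0597 and 0.0222, in that order). Within the Ts1Rhr cohort the same values were 0.71, 0.416, 0.574 and 0.174 (exact permutation p = 0.05, 0.304, 0.193 and 0.711), and the rank correlation was -0.05 for Evc and 0.881 for Gli3 (exact permutation p = 0.949 and 0.0181). None of these 4 relations but that of Smo thus had an r with a p at or under 0.05 in the Ts1Rhr cohort. Without the 2 farthest hearts r was 0.784 for Smo, 0.721 for Ptch1, 0.680 for Gli3 and 0.652 for Evc. A relation with a small slope is a small change in level: over the 16 hearts Ptch1 spanned 643 to 992 and Smo 966 to 1509.

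Members were also compared with each other over the same 16 hearts, in 36 pairs. Gli1 and Hhip moved together most closely (r = 0.985, permutation p = 8e-05, adjusted p = 0.00288, rho = 0.921, permutation p = 0.00088, adjusted p = 0.0158), and r was 0.944 without the 2 hearts farthest in Gli1. In the Dp3Tyb cohort r was 0.992 and rho 0.952 (exact permutation p = 0.00278 and 0.00556), and in the Ts1Rhr cohort r was 0.939 and rho 0.738 (exact permutation p = 0.0208 and 0.103). In the Ts1Rhr cohort Gli1 and Smo had the higher values (r = 0.944 and rho = 0.905, exact permutation p = 0.00556 each). Of the 36 pairs 13 passed by r and 11 by rho after adjustment over these pairs. Pairs of other genes were not computed, so these counts have no share over all genes to be set against. Evc and Evc2, which share a gap between their starts, had no correlation that passed (r = -0.0020, permutation p = 0.996, adjusted p = 0.996, rho = -0.11, permutation p = 0.711, adjusted p = 0.751).

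The ligands were examined next, since a readout of the pathway depends on a source. Shh, which encodes the ligand of the foregut and lung bud epithelium, was 42.9, 0, 14.7, 0 and 0 in WT and 5.11, 9.39, 12.7, 51.4 and 11.2 in Dp3Tyb, and 29.2, 7.59, 20.6, 21.1 and 10.5 in WT and 0, 5.86, 0, 29.2 and 33.6 in Ts1Rhr. The 5 hearts without a read of Shh were the 5 of lowest lung bud level, and in each the worth of 3 reads, between 2.24 and 8.81, bounds the value. Its slope on the lung bud level was 0.96 ± 0.07 (SE, limma adjusted p = 4.8e-08), and the strain differences were 1.93 ± 1.12 in Dp3Tyb and -1.53 ± 0.97 in Ts1Rhr (limma adjusted p = 1.0 and 0.795), against 0.64 ± 1.55 and -0.36 ± 1.17 with DESeq2. In Ts1Rhr the difference was -0.89 without Ts1Rhr replicate 1 or 3. The size of the slope depended on the pseudocount, at 0.41 with 10 and 1.57 with 0.1, and it passed with both. Dhh, the ligand gene of endothelium and Schwann cells, was between 29.4 and 63.0 in all 20 hearts, with a slope of -0.0035 ± 0.04 (limma adjusted p = 1.0). Ihh, the ligand gene of cartilage and gut, had values between 0 and 3.09 and was not tested.

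On the receiving side, Cdon, Boc and Gas1 encode coreceptors that present the ligand. Slopes on the lung bud level passed for Boc (0.15 ± 0.03, SE, limma adjusted p = 0.00312), Gas1 (0.05 ± 0.01, adjusted p = 0.0391) and Cdon (0.05 ± 0.01, adjusted p = 0.0465). Boc was between 282 and 733, and the slopes of Gas1 and Cdon lost the threshold without the low-value filter (limma adjusted p = 0.0771 and 0.0822). Leaving out 1 library at a time, the call was lost in 10 of 20 cases for Gas1 and in 14 of 20 for Cdon, with the highest adjusted p, 0.240 and 0.171, without WT replicate 1 of the Dp3Tyb cohort. Neither passed within the Dp3Tyb cohort (limma adjusted p = 0.453 and 0.859) or the Ts1Rhr cohort (0.785 and 0.471), or without the 4 libraries of low lung bud level (0.240 and 0.0702), and Gas1 also missed the threshold with the longer marker list (0.0590). None of these 3 passed in either strain, and their log2 fold changes lay between -0.0047 and 0.20 in Dp3Tyb and between -0.18 and -0.013 in Ts1Rhr.

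A further list held 7 genes linked to Hedgehog in septal progenitors or the mesoderm around them, whether upstream or downstream of the signal. Of these, the forkhead genes Foxf1 and Foxf2, the odd-skipped gene Osr1 and the LIM homeodomain gene Isl1 rose with the lung bud level (slopes 0.91 ± 0.07, 0.71 ± 0.16, 0.25 ± 0.03 and 0.16 ± 0.03, SE, limma adjusted p = 2.6e-07, 0.0153, 1.1e-05 and 0.00168). Within the Dp3Tyb cohort Osr1 (0.22, limma adjusted p = 0.09996) and Isl1 (0.12, adjusted p = 0.638) did not pass. Isl1 also missed the threshold without the 4 libraries of low lung bud level (0.16, limma adjusted p = 0.115), and Foxf2 did without Ts1Rhr replicate 3 (0.69, limma adjusted p = 0.0548). With a pseudocount of 10 the slopes of Foxf1 and Foxf2 were 0.60 and 0.28, and in edgeR on whole reads they were 0.95 and 1.42. The Wnt ligand genes Wnt2 (0.13 ± 0.06) and Wnt2b (0.13 ± 0.05) did not pass (limma adjusted p = 0.387 and 0.175), nor did the T-box gene Tbx5 (-0.02 ± 0.03, adjusted p = 0.995). Foxf1 was between 0.75 and 5.99 in the 4 libraries of low lung bud level and between 2.94 and 159 in the 16 others, whereas Tbx5 was between 1308 and 1874 and between 1291 and 2278. In Dp3Tyb 0 of the 6 genes tested passed (log2 fold changes from -0.0039 for Tbx5 to 1.63 for Foxf1), and in Ts1Rhr 0 of 6 did (from -1.04 for Foxf1 to 0.21 for Wnt2b). Leaving out 1 library at a time, Foxf1 ran from 0.92 (without WT replicate 4) to 2.45 (without WT replicate 1) in Dp3Tyb and from -1.56 (without Ts1Rhr replicate 4) to -0.25 (without Ts1Rhr replicate 3) in Ts1Rhr, where Wnt2b ran from 0.09 (without Ts1Rhr replicate 5) to 0.36 (without Ts1Rhr replicate 1). With DESeq2 on whole reads the value for Foxf1 was 0.50 in Dp3Tyb and 0.0068 in Ts1Rhr. Foxf2 was too low to be tested within a cohort. Foxf1 is also a gene of lung mesenchyme, as are Tbx4 and Wnt2, and Tbx4 had a slope of 0.76 ± 0.06 (limma adjusted p = 5.0e-07).

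**Figure D4:**
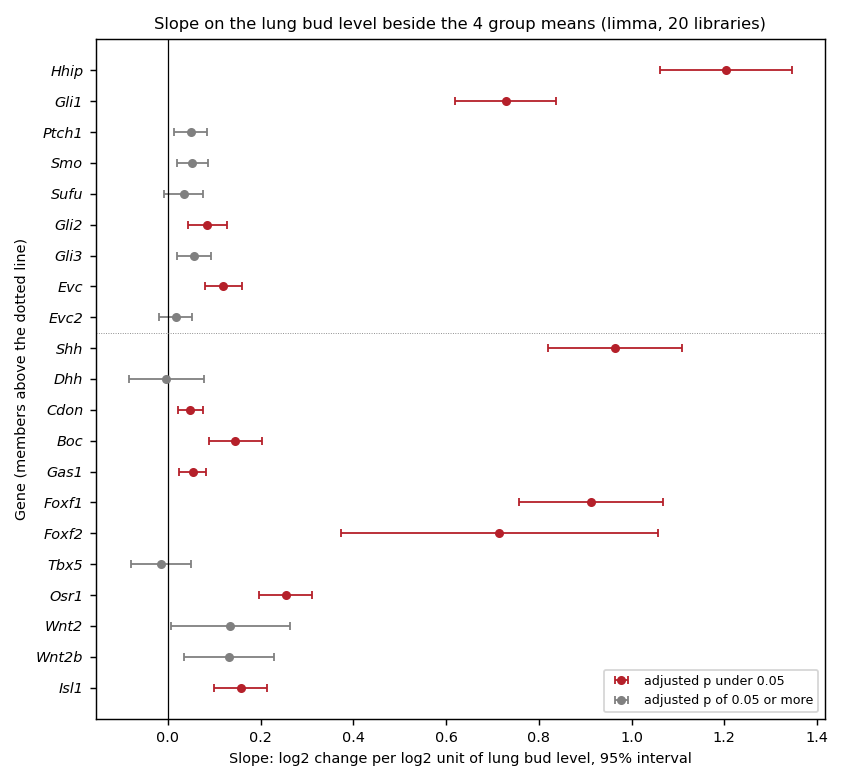
Slope of log2(value + 1) on the lung bud level beside the 4 group means (x axis, in log2 units per log2 unit, limma, with 95% intervals) for the 9 members and for ligands, coreceptors and septal progenitor genes linked to the pathway (y axis), in red where the adjusted p is under 0.05. Hhip, Gli1, Shh, Foxf1 and Foxf2 lie between 0.71 and 1.2 on this scale, and all others at or below 0.25.

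The lists held 57 pathway genes beside the members, of which 55 were tested in each strain. In Dp3Tyb 0 of 55 passed, 32 were higher and 23 lower, and the median log2 fold change was 0.015. In Ts1Rhr 0 of 55 passed, 21 were higher and 34 lower, and the median was -0.024. An unadjusted p under 0.05 was found for 1 of 55 in Dp3Tyb, Snai1 (0.35 ± 0.16, SE, limma adjusted p = 1.0), and for 0 of 55 in Ts1Rhr. On the lung bud level 10 of 56 had a slope that passed, all upward, again against 3.36% of all genes: Shh, Boc, Cdon, Gas1, Foxf1, Foxf2, Osr1 and Isl1, the heparan sulfate proteoglycan gene Gpc3 and the ligand release gene Scube3. By role, the slope passed for 1 of 2 ligands, 1 of 5 genes of ligand release, 4 of 5 receptors and coreceptors and 4 of 7 septal progenitor genes. It passed for 0 of 13 regulators of Smo and the cilium, 0 of 8 genes of Gli processing, 0 of 8 of ciliary transport and 0 of 8 general targets. Within the cohorts, Boc kept its size without passing (0.16 and 0.12, limma adjusted p = 0.277 and 0.0929).

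Other cell types were checked in the same way, to see which markers moved with the lung bud level. Of the markers of lung bud and foregut epithelium, the 6 tested beside the 3 that define the level all had slopes that passed, between 0.46 and 1.11, as did 2 of 3 markers of lung mesenchyme. Their sums ranged from 15.2 to 892 over all hearts for the epithelium list of 10 and from 29.4 to 416 for the mesenchyme list. Of 3 markers of neural crest and ganglia, all with slopes above 0 and an unadjusted p under 0.05, 1 passed, Sox10 (slope 0.42), and of 4 markers of cushion mesenchyme 1 did, Prrx1 (0.19). None of 7 cardiomyocyte (slopes from -0.07 to -0.06), 5 endocardial and endothelial, 4 epicardial, 2 liver or 2 cartilage markers tested did. All 7 cardiomyocyte and all 5 endocardial and endothelial slopes were nevertheless below 0, and an unadjusted p under 0.05 was found for 6 of the 7 and 1 of the 5, where 11.7% of all genes had one. The sum of 4 liver markers was between 8.38 and 200. The part of tissue attached to the heart in the values of Gli1 and Hhip was not tested beyond these relations, and sections or sorted cells were not analysed here.

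Levels of the members were compared per length, as normalised read count per kilobase (kb) of the longest transcript, in the 10 WT hearts. Smo had the highest level (232 ± 27.5 per kb, SD, n = 10), followed by Sufu (141 ± 14.6), Gli3 (81.1 ± 9.37), Ptch1 (78.4 ± 5.68), Evc2 (70.9 ± 6.75), Gli2 (51.3 ± 9.66), Evc (33.5 ± 5.47), Gli1 (17.8 ± 13.2) and Hhip (10.9 ± 8.52). Smo was above Sufu, Sufu above Gli3, Evc2 above Gli2, Gli2 above Evc and Gli1 above Hhip in 20 of 20 hearts. Gli3 and Ptch1 did not differ beyond their spread (mean difference 2.70 ± 6.77 per kb, SD, n = 10, Gli3 higher in 17 of 20 hearts), nor did Ptch1 and Evc2 (7.51 ± 8.59, Ptch1 higher in 12 of 20). Evc was above Gli1 in 18 of 20 hearts. Gli1 and Hhip were thus lowest per length, and their SD was also the largest share of the mean.

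**Figure D5:**
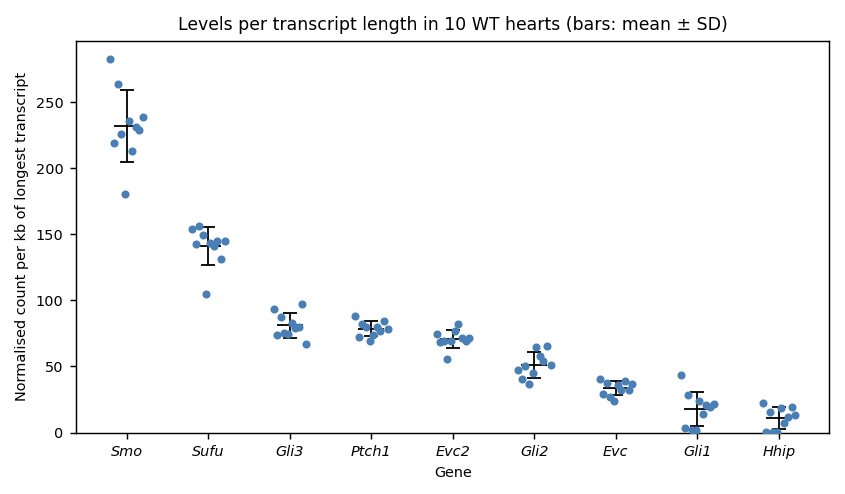
Normalised read count per kb of the longest transcript (y axis) of the 9 genes (x axis) in each of 10 WT hearts, with the mean and SD. Smo is highest at 232 per kb and Hhip lowest at 10.9, and the points of Gli3, Ptch1 and Evc2 share 1 range.

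Finally, the genes whose pattern among hearts of the same genotype was most like that of the 3 target genes were listed, by Pearson's r of centred log2(value + 1) over all 20 hearts among 15348 genes. This is a description, with points that share libraries and, for Gli1 and Hhip, with the 4 libraries of low lung bud level at 1 end. For Gli1 they were Esrp1, an epithelial splicing factor gene (r = 0.990), Shh (0.981), Foxf1 (0.978), Adam28 (0.968) and Hhip (0.967). For Hhip they were Tbx4, a T-box gene of the lung and limb (r = 0.982), Chodl (0.977), Cdh1 (0.976), Foxf1 (0.971) and Esrp1 (0.971). For Ptch1 they were Hpse, the heparanase gene (r = 0.888), Eeig2 (0.859), Tnfrsf19 (0.857), Foxf2 (0.842) and Col11a2 (0.836). Ptch1 thus shared none of its 5 closest genes with Gli1 or Hhip, which shared Esrp1 and Foxf1 with each other. Over the 16 hearts above, Ptch1 nevertheless had an r of 0.766 with Gli1 and 0.745 with Hhip (permutation p adjusted over 36 pairs = 0.0437 and 0.0423). Its rho was 0.759 and 0.788 (adjusted permutation p = 0.0592 and 0.0412). In the Ts1Rhr cohort alone r was 0.693 and 0.727 (exact permutation p = 0.278 and 0.185).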

How the data were processed

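Hearts of E13.5 mouse embryos were snap frozen, and mRNA libraries were sequenced on an Illumina instrument, with 20 libraries in 4 groups by genotype label. The authors deposited a table of normalised values, a signal equal to reads divided by a size factor. The submitters' processing notes name Trimmomatic 0.36, STAR 2.5.2a, RSEM 1.2.31, DESeq2 and GRCm38; the annotation and use of strand are not given in the sources used here. In every library 100% of values were whole multiples of 1 read (tolerance 1e-06), so whole reads were recovered. Depth was 6.60 to 19.6 M reads, and a value of 0 is bounded by 3 reads, for counting error only.

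The main test was limma 3.58.1 (R 4.3.3) on log2(value + 1) with a trended robust prior, 2-sided, Benjamini-Hochberg adjusted at 0.05 over genes with values of at least 10 in at least 5 libraries. On this scale the pseudocount shrinks the change of low genes, while a mean of logs gives more weight to libraries near 0 than a mean of reads, so that the strain differences of Hhip, Gli1 and Shh were larger in size in limma than in DESeq2. DESeq2 1.42.0 and edgeR 4.0.16 on recovered reads were alternatives. Further alternatives were TMM scaling, other pseudocounts, no filter, lung bud or mitochondrial terms, and fits without single libraries or groups of them. Correlations, planned over 20 libraries, and a fit of the slope were computed without the 4 libraries of low lung bud level, a choice made after the data were seen. They used 100000 permutations, or all 720 within a cohort. Symbols and transcript lengths were from GENCODE vM39 and promoters from RefSeq. Members and lists were chosen with earlier results of these data known. Named genes were the members, the ligands, Cdon, Boc, Gas1, 7 septal progenitor genes, other list genes with an unadjusted p under 0.05, the 5 genes most like each target gene, and Dyrk1a, with other slopes that passed and markers added after their values were seen. Some listed genes are not reported here and were left out of the lists and their counts. Replicates were labelled as separate samples and numbered in listed order, and p-values measure the spread between these samples.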

Additional observations from a re-analysis of the deposited data

Results flagged for a closer look

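In 12 of 96 groups of 5 hearts the highest or lowest heart stood apart from the other 4, by a gap over 0.71 of the group's range. Chance alone gives about 1 in 20 for normally distributed values. The share for skewed counts, as of low genes here, was not computed and can be larger. The libraries and genes are not independent, so these are not 12 separate cases. In 9 of them Dp3Tyb replicate 4, the heart with the highest lung bud level, was the high one. Its value was 992 for Ptch1 with the others at 667 to 746, 212 for Gli1 (31.5 to 69.9), 275 for Hhip (23.8 to 81.4) and 304 for Evc (203 to 218). It was 51.4 for Shh (5.11 to 12.7), 733 for Boc (470 to 541), 911 for Gas1 (742 to 779), 159 for Foxf1 (20.4 to 36.4) and 51.4 for Foxf2 (0 to 1.70).

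WT replicate 5 of the Dp3Tyb cohort, the shallowest library and the one with the largest mitochondrial share, was lowest for Sufu at 484 (658 to 722 in the others) and highest for Tbx5 at 2102 (1361 to 1475). WT replicate 4 of the Ts1Rhr cohort, which had the next largest mitochondrial share, was lowest for Sufu at 607 (651 to 669).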

How the results depend on the processing

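No paired analysis was possible because the labels carry no replicate numbers and nothing in them ties a heart of one group to a heart of another.

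In all alternatives run, 0 of 9 members passed in either strain and in the difference between strains, and Hhip and Gli1 kept slopes that passed.

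Counts over all genes moved with the processing. With 8 genes called in Dp3Tyb, 4 in Ts1Rhr, 2 for the difference and 516 for the slope in limma with group alone, DESeq2 called 34, 25, 3 and 851 and edgeR 9, 4, 2 and 593. A mitochondrial term gave 45, 25, 3 and 1656 with 7 members for the slope, and leaving out libraries over 10% mitochondrial reads 30, 0, 2 and 1374. A lung bud term gave 2, 0 and 0, no filter 4, 4, 0 and 518, a single fit of all libraries 17 in Dp3Tyb and 11 in Ts1Rhr, and leaving out libraries above the median lung bud level 0, 0 and 0. Slopes called within the Dp3Tyb cohort numbered 45, with 2 members, and within the Ts1Rhr cohort 161, again with 2 members. Leaving out 1 replicate at a time gave 2 to 13 genes in Dp3Tyb, 1 to 6 in Ts1Rhr, 0 to 3 for the difference, and 327 to 636 with 3 to 5 members for the slope.

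With the lung bud level as a term the log2 value turned in sign in Dp3Tyb to Gli1 -0.13, Gli3 -0.081, Smo -0.053, Evc -0.054, Boc -0.079, Gas1 -0.078, Tbx5 0.061 and Isl1 -0.040, in Ts1Rhr to Gli1 0.44, Gli2 0.013, Gli3 0.071, Smo 0.030, Sufu 0.072, Hhip 0.42, Evc 0.18, Evc2 -0.017, Shh 0.53, Cdon 0.057, Boc 0.076, Gas1 0.059, Foxf1 0.83, Osr1 0.28, Wnt2 0.15 and Isl1 0.035, for the difference between strains to Ptch1 -0.095, Gli1 -0.61, Gli3 -0.16, Smo -0.100, Sufu -0.059, Hhip -0.13 and Evc -0.23. With a mitochondrial term the log2 value turned in sign in Dp3Tyb to Tbx5 0.013, in Ts1Rhr to Gli3 0.017. With DESeq2 the log2 value turned in sign in Ts1Rhr to Sufu 0.00024, Evc2 -0.0028 and Foxf1 0.0068. With edgeR the log2 value turned in sign in Dp3Tyb to Tbx5 0.0026, in Ts1Rhr to Sufu 0.0025 and Foxf1 0.033. With the longer marker list the log2 value turned in sign for the slope to Dhh 0.0100. Within the Dp3Tyb cohort the log2 value turned in sign for the slope to Dhh 0.047. Within the Ts1Rhr cohort the log2 value turned in sign for the slope to Evc2 -0.010 and Tbx5 0.013. Without libraries above the median lung bud level the log2 value turned in sign in Dp3Tyb to Cdon 0.095, in Ts1Rhr to Evc2 -0.12 and Wnt2b -0.100. Without libraries over 10% mitochondrial reads the log2 value turned in sign in Dp3Tyb to Gli3 -0.029 and Tbx5 0.0078, in Ts1Rhr to Gli3 0.10, Smo 0.010, Sufu 0.034 and Gas1 0.053, for the difference between strains to Ptch1 -0.035 and Gli3 -0.13. Without libraries of low lung bud level the log2 value turned in sign for the slope to Dhh 0.084. Leaving out 1 replicate at a time turned the sign in at least 1 case in Dp3Tyb Cdon (-0.069 to 0.042), Gas1 (-0.016 to 0.12), Gli3 (-0.046 to 0.084), Smo (-0.023 to 0.14), Sufu (-0.039 to 0.14), Tbx5 (-0.11 to 0.11) and in Ts1Rhr Evc (-0.18 to 0.0098), Evc2 (-0.026 to 0.040), Gas1 (-0.063 to 0.023), Gli3 (-0.100 to 0.033), Sufu (-0.042 to 0.050), Wnt2 (-0.31 to 0.021) and for the difference between strains Gli3 (-0.012 to 0.12), Ptch1 (-0.0096 to 0.14), Sufu (-0.036 to 0.14) and for the slope Dhh (-0.031 to 0.016), given as the lowest and highest values. The cause was not tested for any of these. None of the values that turned belonged to a result that passed.

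Depth limits the low genes: 1 read was worth 2.94 in the shallowest library, and Hhip rested on 0 to 4 reads in the 4 libraries of low lung bud level. With 2 low libraries on 1 side of each cohort, lung bud level and genotype were partly confounded within each cohort.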

Other observations

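Scube3, which encodes a secreted protein that helps to release Hedgehog ligand, was between 151 and 201 in the 4 libraries of low lung bud level and between 120 and 477 in the 16 others, with a slope of 0.22 ± 0.03 (SE, limma adjusted p = 0.00036). Prrx1, a homeobox gene of limb and craniofacial mesenchyme, was between 424 and 582 in those 4 libraries and between 617 and 1280 in the 16 others, so that the ranges did not meet, and had a slope of 0.19 ± 0.02 (SE, limma adjusted p = 8.3e-05). Mycn, a proliferation gene that Hedgehog induces in some tissues, was between 566 and 628 in the 4 libraries and between 366 and 572 in the others, with a slope of -0.04 ± 0.02 (SE, limma adjusted p = 0.624). These genes were chosen after their values were seen.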
